A study of Mus musculus with 18 samples.

Results

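The genes described here are 10 components of the circadian clock or genes that it drives, *Nr1d1*, *Nr1d2*, *Dbp*, *Tef*, *Per1*, *Per2*, *Per3*, *Arntl*, *Npas2* and *Bhlhe41*, measured in sorted glomerular cells of *Cd2ap* mutant mice. All 10 of 10 were found by gene symbol among 28856 transcript clusters of the Affymetrix Mouse Gene 1.0 ST array, of which 25254 carry a symbol. They lie on 11 transcript clusters. *Nr1d1* has 2, and the one used (10390691) was chosen by the highest mean signal over the 18 arrays. The list itself was selected on earlier results of these arrays, so the genotype differences of its genes are given as a description and are no independent evidence that clock genes change.

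The study profiled the major cell types of the glomerulus in a mouse model of focal segmental glomerulosclerosis. Mice that lack CD2AP, an adaptor protein of the podocyte slit diaphragm, carried the tm1Shaw allele (B6.129X1) and are labelled CD2AP-/-. The controls are labelled wildtype, and all mice were 5 weeks of age. Glomeruli were sieved and dissociated, and GFP positive cells were sorted by FACS. The groups were CD2AP-/- mesangial cells, control mesangial cells, CD2AP-/- podocytes, wild type podocytes, CD2AP-/- endothelial cells and wild type endothelial cells, with 3 arrays each. All groups, controls included, carry a GFP reporter transgene, *Meis1-GFP* in the mesangial and *Tie2-GFP* in the endothelial groups, so each cell type is what its transgene marks. In the deposited table the mesangial controls are marked +:- and the other controls with plus signs alone, and whether the former were heterozygous is not given. Neither the hour of sacrifice nor the lighting schedule is given in the sources used here, and for genes with a daily rhythm a difference of hour between groups cannot be told apart from genotype. The arrays of a group are called A, B and C by column order, which has no other meaning. The series record calls them biological triplicates, and nothing says whether cell types came from the same animals.

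The circadian clock of mammals is a loop of transcription. ARNTL (BMAL1), paired with CLOCK or its relative NPAS2, binds E-boxes and activates the *Per* and *Cry* genes, *Nr1d1*, *Nr1d2*, *Dbp*, *Tef* and *Bhlhe41*. PER and CRY proteins and BHLHE41 (DEC2) repress that activator, and the nuclear receptors NR1D1 and NR1D2 (REV-ERB alpha and beta) repress *Arntl* and *Npas2* through ROR elements. DBP and TEF are PAR bZIP factors that activate genes with D-boxes, among them *Per* genes. *Arntl* and *Npas2* therefore normally peak at about the opposite time of day from *Dbp*, *Nr1d1* and the *Per* genes. Most cells of the kidney, including those of the glomerulus, hold such a clock, and *Per1* is also induced directly by glucocorticoids.

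The 5 promoters below are printed because they hold the elements of this loop within 250 bases before to 50 bases after a RefSeq transcription start (GRCm38.p6), each written 5′ to 3′ on the strand of its gene. They are the windows of *Per1* (chr11:69098699-69098998, plus strand), *Tef* (chr15:81811164-81811463, plus strand), *Bhlhe41* (chr6:145865371-145865670, minus strand), *Per3* (chr4:151044616-151044915, minus strand) and *Arntl* (chr7:113207261-113207560, plus strand). Capitals mark the E-box CACGTG in the first 3, the D-box TTATGTAA in *Per3* and the ROR element TAGGTCA in *Arntl*.
Per1 promoter: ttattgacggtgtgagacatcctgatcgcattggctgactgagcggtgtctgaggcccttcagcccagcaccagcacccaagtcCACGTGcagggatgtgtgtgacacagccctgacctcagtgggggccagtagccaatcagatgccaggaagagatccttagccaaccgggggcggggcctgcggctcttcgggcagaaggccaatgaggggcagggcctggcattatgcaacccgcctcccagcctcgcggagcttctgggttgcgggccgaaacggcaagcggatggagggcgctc
Tef promoter: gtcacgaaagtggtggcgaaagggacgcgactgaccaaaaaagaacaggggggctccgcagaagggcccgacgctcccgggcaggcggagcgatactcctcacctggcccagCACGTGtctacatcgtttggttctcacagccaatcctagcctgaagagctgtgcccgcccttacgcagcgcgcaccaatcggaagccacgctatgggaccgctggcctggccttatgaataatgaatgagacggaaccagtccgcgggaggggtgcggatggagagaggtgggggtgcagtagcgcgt
Bhlhe41 promoter: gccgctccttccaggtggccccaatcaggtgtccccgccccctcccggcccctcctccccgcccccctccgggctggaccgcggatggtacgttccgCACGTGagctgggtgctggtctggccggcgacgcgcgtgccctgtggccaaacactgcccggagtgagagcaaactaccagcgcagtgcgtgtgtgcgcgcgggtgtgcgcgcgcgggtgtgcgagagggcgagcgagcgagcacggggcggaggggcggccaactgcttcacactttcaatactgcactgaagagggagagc
Per3 promoter: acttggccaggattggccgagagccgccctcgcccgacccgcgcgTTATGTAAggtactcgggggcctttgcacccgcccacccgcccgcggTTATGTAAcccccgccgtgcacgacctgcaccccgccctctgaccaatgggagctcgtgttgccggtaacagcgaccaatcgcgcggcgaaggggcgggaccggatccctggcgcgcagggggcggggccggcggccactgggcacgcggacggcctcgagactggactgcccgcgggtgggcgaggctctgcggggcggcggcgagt
Arntl promoter: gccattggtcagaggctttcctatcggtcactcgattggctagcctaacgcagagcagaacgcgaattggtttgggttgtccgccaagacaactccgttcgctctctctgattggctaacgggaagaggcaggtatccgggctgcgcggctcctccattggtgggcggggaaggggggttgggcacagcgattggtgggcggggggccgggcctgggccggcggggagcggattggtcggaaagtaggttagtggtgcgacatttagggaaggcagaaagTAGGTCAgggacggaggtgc

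Promoter windows were found for 9 of the 10 genes, 12 windows in all, and *Per2* had none. Motifs were searched on both strands. The E-box CACGTG, which is its own reverse complement, was in 4 windows of 3 genes, both windows of *Tef* and 1 each of *Per1* and *Bhlhe41*, beside 7.15% of 32851 windows of the same length. The D-box, TTATGTAA or TTACGTAA, was in the window of *Per3* alone, where it occurred 2 times. It was in 1.06% of all windows and occurred more than once in 0.0244%. The ROR element, TAGGTCA or TGGGTCA, was in 1 of the 2 windows of *Arntl* and in 6.45% of all windows. These matches describe the letters of short windows, and a window without a match says nothing about sites elsewhere.

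The signals are linear intensities after RMA, which quantile normalizes the probes over the arrays. The median of an array lay between 62.8 and 71.6, and 9697 to 10097 transcript clusters per array reached a signal of 100, the minimum used by the study. *Nr1d2* reached 100 in 18 of 18 arrays, *Nr1d1* in 17, *Arntl* in 16, *Per1* in 15 and *Dbp* in 14. *Tef* and *Bhlhe41* reached it in 5 arrays each, *Npas2* in 4, and *Per2* and *Per3* in 3. Signals of these last 5 genes near the array median cannot be told from background. *Nr1d1* shares its transcript cluster with *Thra*, *Dbp* with *Sphk2* and *Per2* with *9830107B12Rik*. In RefSeq the genes of the first 2 pairs overlap by 1075 and 741 bases, and the signal of a shared cluster cannot be divided between them.

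The *Cd2ap* signal was 797 to 870 in mutant and 922 to 1123 in control mesangial arrays, 1478 to 1512 in mutant and 1546 to 2108 in wild type podocytes, and 891 to 966 in mutant and 757 to 859 in wild type endothelium. Mutants were thus lower without overlap in mesangial cells and podocytes and higher without overlap in endothelium, and no difference passed the adjusted test. Its log2 difference, mutant minus control, was -0.31 (adjusted p = 0.151) in mesangial cells, -0.23 (adjusted p = 0.504) in podocytes and 0.18 (adjusted p = 0.336) in endothelial cells (limma), and the unadjusted p in mesangial cells was 0.0189. Whether the array probes lie in the altered part of the gene is not given in the sources used here, and the directions below rest on the labels. Each labelled cell type held its defining markers. The summed signal of 7 podocyte markers was 10700 to 13370 in podocyte arrays, and that of 7 endothelial markers was 14790 to 17110 in endothelial arrays. The 6 mesangial markers summed to 6396 to 9339 in mesangial arrays. Wild type podocyte arrays also carried endothelial markers at 4224 to 5625, and mutant podocyte arrays at 656 to 2484. Mesangial markers were at 2778 to 3505 and 883 to 2710 in the same groups. The highest podocyte (3536), endothelial (7527) and erythroid (7227) sums among the mesangial arrays were in control arrays, where the lowest were 784.5, 2244 and 270.8. Markers of smooth muscle and juxtaglomerular cells summed to 1022 to 2970 in mutant and 766 to 783 in wild type podocyte arrays, and to 1592 to 2892 in mutant and 1326 to 1609 in control mesangial arrays. The Y-linked *Ddx3y* exceeded *Xist* in 0 of 3 mutant and 2 of 3 control mesangial arrays, in 1 of 3 arrays of each podocyte group, and in 2 of 3 mutant and 0 of 3 wild type endothelial arrays. Sex-linked expression thus differed with genotype in mesangial cells and endothelium, and a fit with a term for it is given with the alternatives. The part of the other cell types in the differences below was not tested. In bulk sorted cells, fewer cells that express a gene and less of its RNA per cell cannot be told apart.

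*Arntl* encodes BMAL1, the one clock activator without which the loop stops. Its mesangial signals were 142, 132 and 179 in mutant arrays A, B and C and 167, 294 and 237 in the control arrays. In podocytes they were 72.5, 141 and 52.6 in mutants and 170.4, 216 and 244 in wild type. Endothelial cells gave 206, 347 and 368.3 in mutants and 331, 301 and 291 in wild type. Every mutant podocyte array lay below every wild type one, the mesangial groups overlapped at mutant C and control A, and in endothelium only mutant A was below the wild type arrays. The log2 difference was -1.35 (SE 0.34, adjusted p = 0.181) in podocytes, a 2.55-fold lower signal, and -0.60 (SE 0.22, adjusted p = 0.188) in mesangial cells by limma with Benjamini-Hochberg adjustment. Both passed the screen of the study (p under 0.05, over 1.5-fold, a signal of at least 100), and neither passed the adjusted test. The p of the screen was taken here as unadjusted. The endothelial difference was -0.05 (SE 0.21, adjusted p = 0.921). Among the controls *Arntl* was highest on average in endothelium, and the endothelial markers were lower in mutant than in wild type podocyte arrays. Their part in the podocyte difference was not tested.

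*Npas2*, the partner of ARNTL that can stand in for CLOCK, was lower in mutants in each cell type. Mesangial signals were 70.5, 62.3 and 62.5 in mutant and 102, 166 and 135 in control arrays. Podocytes gave 48.0, 53.5 and 43.1 in mutants and 89.4, 103 and 96.7 in wild type, and endothelial cells 41.9, 41.4 and 39.0 and 47.3, 44.6 and 45.5. No mutant array reached the lowest control array of its cell type in any of the 3 cell types, although the endothelial values all lie below the array medians. The *Npas2* signal fell in mesangial cells, at a log2 difference of -1.02 (SE 0.18, adjusted p = 0.0401) by limma. Mutant mesangial signals were near the array medians and the gene was tested there only because controls reached 100, so this is a difference between signals and not a ratio of transcript levels. With no signal minimum the adjusted p was 0.0715. It was 0.0282 without control array A and lay above 0.05 without any one of the others, at 0.0982, 0.141 and 0.108 without mutant A, B and C and 0.0948 and 0.0724 without control B and C. In podocytes the log2 difference of -1.001 (SE 0.13, adjusted p = 0.1) was of like size and passed the screen only. Endothelial *Npas2* stayed below a signal of 100 in all 6 arrays and was not tested there.

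*Nr1d1* and *Nr1d2* encode the REV-ERB receptors, repressors of *Arntl* and *Npas2*. *Nr1d1* had mesangial signals of 826, 804 and 515 in mutant and 590.1, 232 and 268 in control arrays. Its podocyte signals were 1083, 724 and 547 in mutants and 709, 274 and 303 in wild type, and its endothelial signals 1086, 133 and 269 and 88.1, 138 and 124. The widest spread of any member within a group was among the mutant endothelial arrays, where A was far above B and C, and in mesangial cells and podocytes control array A stood above a mutant array. Log2 differences of 1.07 (SE 0.37, adjusted p = 0.164) in mesangial cells, 0.95 (SE 0.39, adjusted p = 0.333) in podocytes and 1.56 (SE 0.65, adjusted p = 0.261) in endothelial cells passed the screen and not the adjusted test (limma). The other transcript cluster of the gene (10381006), whose symbol list puts *Thra* first, had log2 differences of -0.19, -0.22 and 0.20 in the same order, so the higher *Nr1d1* signal in mesangial cells and podocytes was seen on the cluster of higher signal alone.

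*Nr1d2* was the member that reached 100 on every array. It gave 698, 681 and 514 in mutant and 644, 371 and 316 in control mesangial arrays, 614, 464 and 789 in mutant and 545, 383 and 339 in wild type podocytes, and 665, 242 and 302 in mutant and 169, 234 and 178 in wild type endothelium. Only the endothelial genotypes did not overlap, with mutant B at 242 just above wild type B at 234. The log2 difference there was 0.93 (SE 0.34, adjusted p = 0.215), past the screen, and those of mesangial cells, 0.56 (SE 0.27, adjusted p = 0.287), and podocytes, 0.56 (SE 0.24, adjusted p = 0.358), passed neither the screen nor the adjusted test of limma.

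*Dbp* is an output gene of the clock with a wide daily swing in many organs. Mesangial signals of *Dbp* were 264, 214 and 120.2 in mutant and 132, 113 and 74.3 in control arrays. Podocyte signals were 299, 180.0 and 254 in mutants and 149, 93.6 and 108 in wild type, and endothelial signals 313, 89.5 and 111 and 101, 84.7 and 100.5. Mutant podocytes lay above wild type without overlap, mutant mesangial C lay below control A, and in endothelium mutant A stood well above the other 5 arrays. Differences on the log2 scale of 0.87 (SE 0.33, adjusted p = 0.197) in mesangial cells and 1.06 (SE 0.24, adjusted p = 0.156) in podocytes passed the screen, and that of 0.62 (SE 0.41, adjusted p = 0.445) in endothelium did not (limma).

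*Tef*, its PAR bZIP relative whose promoter carries E-boxes, differed less. It had 103, 82.3 and 87.9 in mutant and 66.5 to 76.9 in the control mesangial arrays, 125, 116 and 157 in mutant and 92.1, 85.9 and 99.9 in wild type podocytes, and 102, 65.1 and 79.0 in mutant and 70.0, 82.2 and 73.2 in wild type endothelium. Mutant and control arrays did not overlap in mesangial cells and podocytes and overlapped in endothelium. The log2 differences of 0.36 (SE 0.11, adjusted p = 0.142), 0.51 (SE 0.15, adjusted p = 0.218) and 0.10 (SE 0.16, adjusted p = 0.759) in mesangial cells, podocytes and endothelium were all under 1.5-fold (limma).

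The *Per* genes encode the negative limb of the loop. *Per1* signals were 189.6, 138 and 132 in mutant and 106, 94.3 and 108 in control mesangial arrays. Among podocytes they were 146, 409.7 and 382 in mutants and 94.5, 133 and 163 in wild type, and in endothelium 265, 158 and 144 and 136, 95.4 and 118. In podocytes mutant arrays B and C stood apart from the other 4, while mutant A was within the wild type range, and in mesangial cells and endothelium every mutant array was above every control array. *Per1* differed by 0.56 (SE 0.15, adjusted p = 0.105) on the log2 scale in mesangial cells, by 1.16 (SE 0.40, adjusted p = 0.267) in podocytes and by 0.66 (SE 0.24, adjusted p = 0.209) in endothelium (limma), and the last 2 passed the screen.

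*Per2* and *Per3* were close to the array median in most groups. *Per2* had 101, 82.4 and 78.8 in mutant and 62.9, 63.1 and 64.4 in control mesangial arrays, 78.4, 104 and 131 in mutant and 66.9, 70.9 and 64.1 in wild type podocytes, and 62.7 to 70.5 over the 6 endothelial arrays. *Per3*, with its 2 D-boxes, had 94.3, 68.1 and 64.6 in mutant and 62.0, 53.0 and 56.1 in control mesangial arrays, 102, 133 and 146 in mutant and 75.4, 70.4 and 80.5 in wild type podocytes, and 92.3, 61.2 and 69.7 in mutant and 59.2, 71.6 and 75.8 in wild type endothelium. Both genes were higher in every mutant array than in every control array of mesangial cells and podocytes, and in endothelium they overlapped. In podocytes the log2 differences of 0.60 (SE 0.19, adjusted p = 0.236) for *Per2* and 0.74 (SE 0.16, adjusted p = 0.148) for *Per3* passed the screen, and in mesangial cells that of *Per2* was 0.45 (SE 0.11, adjusted p = 0.0847) (limma). *Per3* in mesangial cells and both genes in endothelium stayed below 100 in all 6 arrays and were not tested.

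*Bhlhe41* encodes DEC2, an E-box binding repressor of the clock activator, and had the largest podocyte difference among the members. Its podocyte signals were 222, 134 and 174 in mutants and 39.4, 37.0 and 37.6 in wild type. Mesangial signals were 108, 76.3 and 45.3 in mutant and 36.4, 29.9 and 30.6 in control arrays, and endothelial signals 154, 45.8 and 93.0 and 47.9, 38.6 and 51.5. Control arrays were all near the floor, at 29.9 to 51.5, every mutant array of mesangial cells and podocytes lay above its controls, and mutant endothelial B overlapped the wild type. The *Bhlhe41* signal rose in mutant podocytes, at a log2 difference of 2.19 (SE 0.19, adjusted p = 0.0242) by limma, beside 0.0578% of 12113 transcript clusters with an adjusted p under 0.05. All wild type podocyte signals lay below the array medians, so this is a difference between signals and not a ratio of transcript levels, and the gene was tested there only because mutant arrays reached 100. With no signal minimum the adjusted p was 0.138, and 0 members passed. Without mutant array C the adjusted p was 0.0525, and without wild type A, B and C it was 0.101, 0.236 and 0.103, at log2 differences of 2.01 to 2.37 over all single omissions. The differences of 1.16 (SE 0.30, adjusted p = 0.0914) in mesangial cells and 0.93 (SE 0.38, adjusted p = 0.257) in endothelium passed the screen only.

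**Figure D1:**
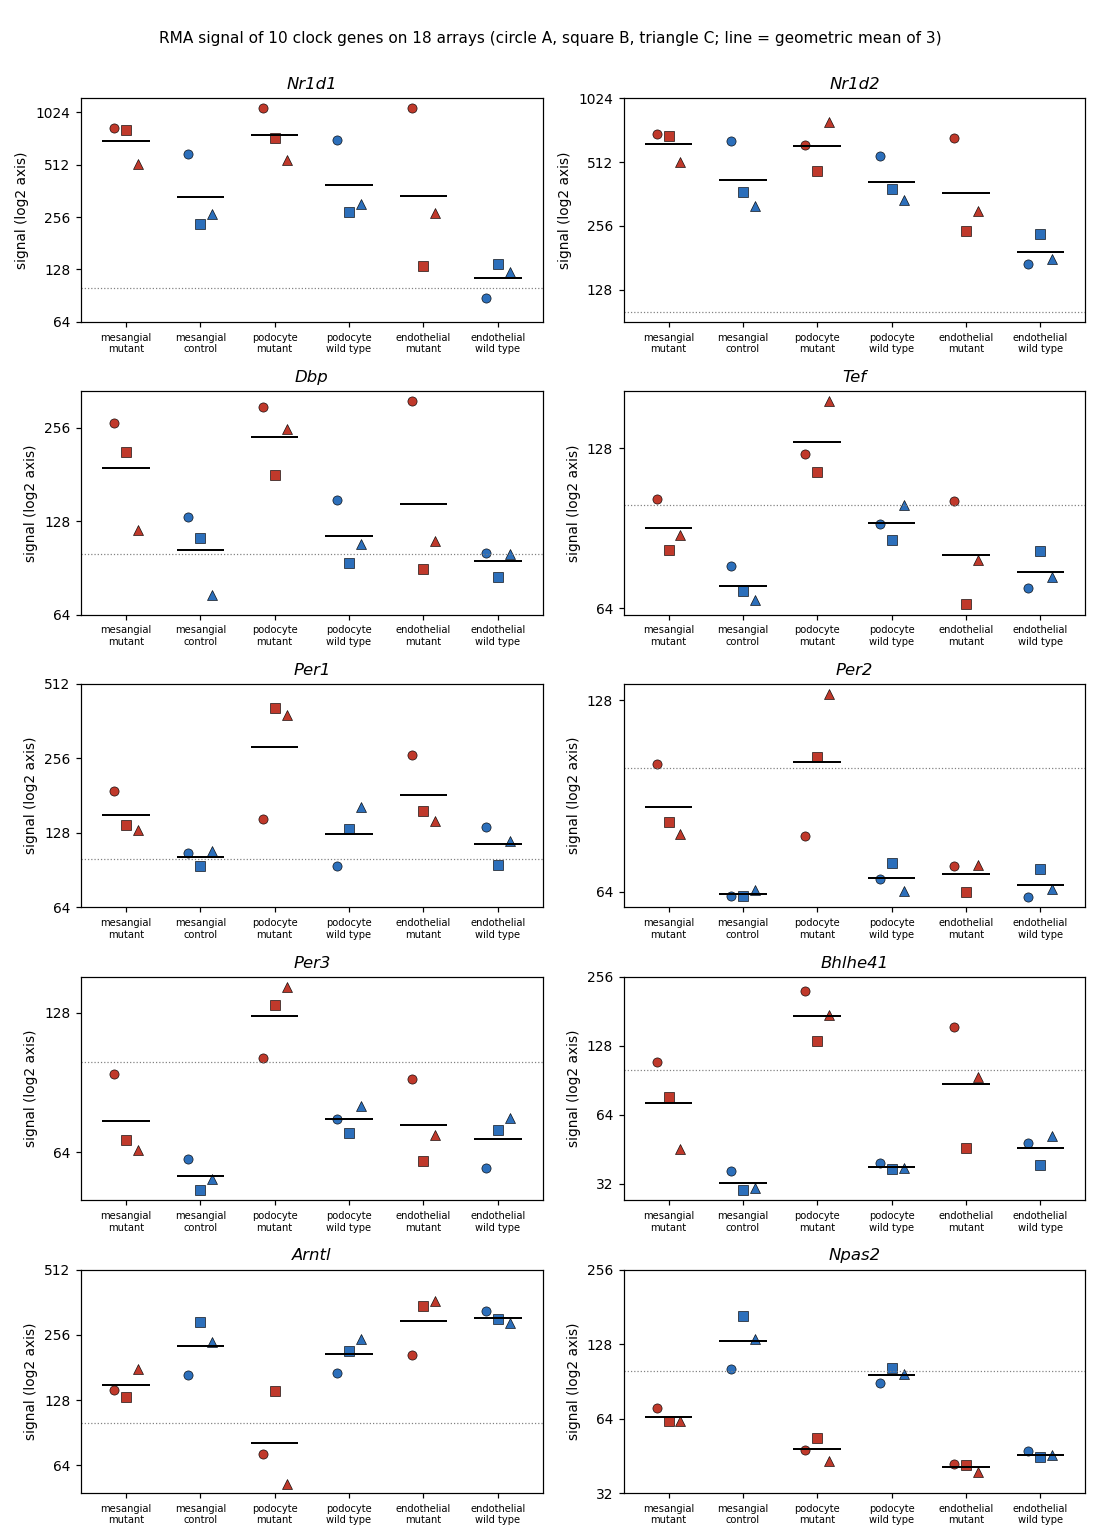
RMA signal (log2 axis) of the 10 clock genes, 1 panel per gene, in the 3 arrays of each cell type and genotype (red, mutant; blue, control; circle, square and triangle for arrays A, B and C), with the geometric mean as a line and the signal minimum of 100 dotted. *Bhlhe41* stands at 134 to 222 in mutant podocytes against 37.0 to 39.4 in wild type, and *Arntl* and *Npas2* are lower in mutant than in control mesangial cells and podocytes.

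Counted by cell type, 9 members were tested in mesangial cells. Of these, 3 passed the screen as higher in mutants, beside 2.08% of 11457 transcript clusters, and 2 as lower, beside 3.12%. The screen count depended on single arrays, and its range is given with the alternatives. *Npas2* alone had an adjusted p under 0.05, beside 2.92%. An unadjusted p under 0.05 (limma) was found for 8 of the 9, beside 21.7%. The genotypes did not overlap for 4 tested members with higher mutants, beside 12.3%, and for 1 with lower mutants, beside 16.3%. The median log2 difference of the 9 was 0.56, and that of all tested transcript clusters was -0.03. Several members were tested only through the group in which they were high, *Tef*, *Per2* and *Bhlhe41* through a mutant array and *Npas2* through controls, so their place in these counts was partly fixed by the signal minimum.

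In podocytes all 10 members were tested. The screen was passed by 6 as higher in mutants, beside 1.26% of 12113 transcript clusters, and by *Arntl* and *Npas2* as lower, beside 4.34%. Genotypes did not overlap for 5 members with higher mutants, beside 6.97%, and for 2 with lower mutants, beside 14.3%. An unadjusted p under 0.05 (limma) was found for 9 of the 10, beside 14.3%. The median log2 difference was 0.67 for the members and -0.04 for all tested. *Tef*, *Per2*, *Per3* and *Bhlhe41* reached 100 only in mutant podocyte arrays, and *Npas2* only in wild type B, so the place of these 5 in the counts was partly fixed by the signal minimum. Without mutant array A, in which *Per1*, *Per2* and *Per3* were lowest, 5 members had an adjusted p under 0.05 in place of *Bhlhe41* alone, beside 2.88% of the transcript clusters in that fit. Among the mutant podocyte arrays A had the highest summed markers of endothelial (2484), mesangial (2710), smooth muscle and juxtaglomerular (2970) and erythroid cells (5377, beside 202 in the lowest and 2962 to 3963 in wild type), and their part was not tested. In a fit that shared the spread of all 18 arrays 5 also did, beside 5.75% (*Per2*, *Per3*, *Bhlhe41*, *Arntl* and *Npas2*).

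Of the 7 members tested in endothelium, 4 passed the screen as higher in mutants, *Nr1d1*, *Nr1d2*, *Per1* and *Bhlhe41*, beside 2.96% of 11330 transcript clusters, and 0 as lower, beside 0.865%. The genotypes of 2 members, *Nr1d2* and *Per1*, did not overlap with mutants higher, beside 17.7%, and 0 with mutants lower, beside 7.34%. By limma 0 had an adjusted p under 0.05, beside 1.29%, and 4 had an unadjusted p under 0.05, beside 18.5%. *Tef* and *Bhlhe41* were tested only through mutant array A. The median log2 difference was 0.66 for the 7 members and 0.07 for all tested. These counts depended on single arrays. Without mutant array A 0 members passed the screen, and the log2 difference moved to 0.72 for *Nr1d1*, 0.50 for *Nr1d2*, 0.07 for *Dbp* and 0.38 for *Per1*, while that of *Arntl* became 0.22. Without mutant C, wild type A, wild type B and wild type C the screen counts were 2, 1, 1 and 0, and without mutant B it was 5.

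The average of the mutant minus control differences over the cell types was tested in a fit of all 18 arrays, over 13523 transcript clusters of which 2.26% rose and 3.6% fell. These are the same arrays as above. By limma 8 of the 10 members rose and 2 fell. Of these, *Tef*, *Per2*, *Per3* and *Bhlhe41* reached a signal of 100 only in mutant arrays and *Npas2* only in controls, so 5 of the 10 entered the fit only through the genotype in which they were high, and their share in the count was partly fixed by the signal minimum. The average log2 difference was 1.43 (SE 0.20, adjusted p = 0.000883) for *Bhlhe41*, 1.20 (SE 0.34, adjusted p = 0.0482) for *Nr1d1*, 0.85 (SE 0.23, adjusted p = 0.0376) for *Dbp*, 0.79 (SE 0.19, adjusted p = 0.0232) for *Per1* and 0.68 (SE 0.19, adjusted p = 0.0493) for *Nr1d2*. Smaller rises were those of *Per3*, 0.41 (SE 0.10, adjusted p = 0.025), *Per2*, 0.37 (SE 0.08, adjusted p = 0.0155), and *Tef*, 0.32 (SE 0.09, adjusted p = 0.042). The falls were -0.73 (SE 0.08, adjusted p = 0.000154) for *Npas2* and -0.67 (SE 0.18, adjusted p = 0.0365) for *Arntl*. With each array left out in turn, *Bhlhe41*, *Npas2* and *Per2* kept an adjusted p under 0.05 in 18 of 18 fits, *Per1* in 15, *Per3* in 14, *Dbp* in 9, *Arntl* in 8, *Tef* in 6, and *Nr1d1* and *Nr1d2* in 4. The number of members past the threshold was 4 without control mesangial B, wild type podocyte B, mutant endothelial A or wild type endothelial A, 5 without mutant mesangial A, control mesangial C, wild type podocyte C or wild type endothelial B or C, and 6 without mutant mesangial B. With no signal minimum it was also 4.

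**Figure D2:**
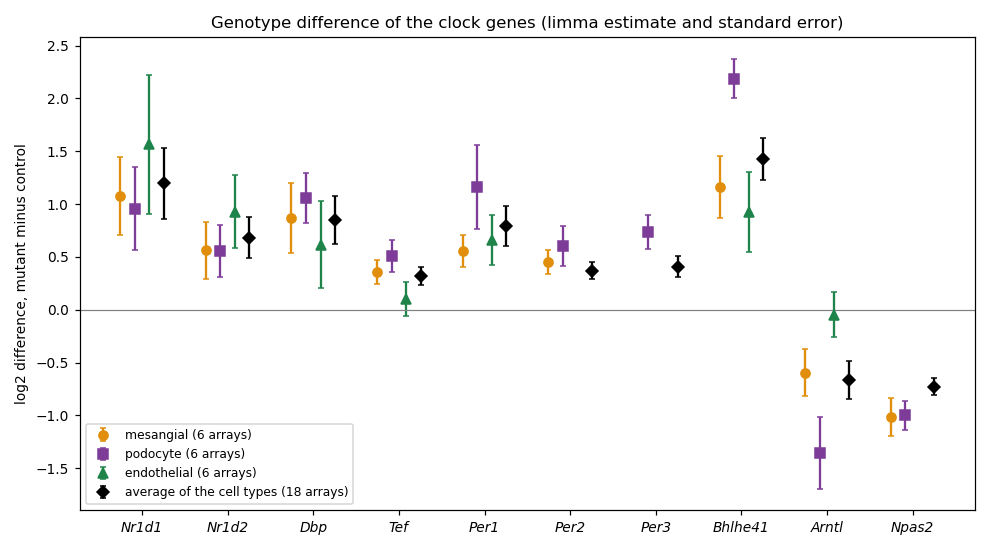
Log2 difference of each clock gene, mutant minus control, with its standard error from limma, in mesangial cells, podocytes and endothelial cells (6 arrays each) and averaged over them (18 arrays). Genes without a symbol for a cell type stayed below a signal of 100 there. The estimates of 8 genes lie above 0 and those of *Npas2* below 0 wherever they were tested, and the endothelial estimate for *Arntl* lies at -0.05.

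Interaction terms tested whether genotype acted differently on the members from one cell type to another. The podocyte effect differed from the mesangial one for 0 of 10 members by adjusted p (limma), beside 0.717% of all transcript clusters. Its largest terms, the podocyte effect minus the mesangial one, were those of *Bhlhe41*, 1.02 (SE 0.49, adjusted p = 0.429), and *Arntl*, -0.76 (SE 0.43, adjusted p = 0.518). At an unadjusted p under 0.05 the podocyte and mesangial effects differed for 0 of 10 as well, beside 12%, while endothelium differed from mesangial cells for 1 of 10, beside 15.9%, and from podocytes for 5 of 10, beside 23.4%. These 5 were *Arntl* and *Npas2*, with the endothelial effect the higher, and *Per2*, *Per3* and *Bhlhe41*, with the podocyte effect the higher. By adjusted p endothelium differed from mesangial cells for 1 member, *Npas2*, at 0.85 (SE 0.20, adjusted p = 0.0497), beside 1.07%, and from podocytes for 1 member, again *Npas2*, at 0.83 (SE 0.20, adjusted p = 0.0412), beside 2.11%. *Npas2* was below every array median in both endothelial groups and entered these fits only through mesangial and podocyte controls. These tests therefore cannot show that genotype acts differently on the gene in endothelium. Background may compress a fall from such signals, which was not tested. Neither call held with an intensity trend (adjusted p = 0.0729 and 0.0582) or with a term for sex-linked expression (0.368 and 0.0834), and with no signal minimum the first did not (0.0655). Both *Npas2* differences are the endothelial effect minus the other. The *Arntl* effect in endothelium minus that in podocytes was 1.31 (SE 0.43, adjusted p = 0.0954) and did not pass the adjusted test.

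Levels were compared between the control groups of the cell types, and no test set the members against other clusters. By adjusted p 1 of 10 differed between podocytes and mesangial cells, beside 23.1% of transcript clusters, 2 between endothelium and mesangial cells, beside 27.2%, and 3 between endothelium and podocytes, beside 33.4%. *Npas2* was highest in mesangial controls, lower in wild type podocytes, at a log2 difference from mesangial cells of -0.45 (SE 0.14, adjusted p = 0.0262), and lowest in endothelium, at -1.52 (SE 0.14, adjusted p = 4.51e-07) against mesangial cells and -1.07 (SE 0.14, adjusted p = 1.92e-05) against podocytes. Its endothelial signals lay below every array median, so the last 2 values are differences between signals and not ratios of transcript levels. *Nr1d2* was lower in endothelium than in mesangial cells, -1.14 (SE 0.34, adjusted p = 0.0183), and podocytes, -1.11 (SE 0.34, adjusted p = 0.0173), and its mesangial and podocyte levels were not shown to differ, -0.03 (SE 0.34, adjusted p = 0.955). Endothelium was also lowest for *Nr1d1*, at -1.76 (SE 0.58, adjusted p = 0.0284) against podocytes, and the difference from mesangial cells, -1.53 (SE 0.58, adjusted p = 0.0626), did not pass. Mean *Arntl* was highest in endothelium, but its differences of 0.44 (SE 0.30, adjusted p = 0.317) from mesangial cells and 0.56 (SE 0.30, adjusted p = 0.177) from podocytes did not pass either. The other 6 members were not shown to differ between any pair of control groups. With 1 array left out, the podocyte and mesangial difference of *Npas2* lost the adjusted threshold without control mesangial B (-0.29) or C (-0.44) or wild type podocyte A (-0.40) or C (-0.46). That of *Nr1d2* between endothelium and mesangial cells did so without control mesangial A (-0.84), and those of *Nr1d1* and *Nr1d2* between endothelium and podocytes without wild type podocyte A (-1.33 and -0.91). Omission of wild type endothelial A or C also took these 3 above 0.05, at adjusted p of 0.0545 to 0.0931 (limma), and the endothelial differences of *Npas2* passed in 18 of 18 fits.

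The order of the 3 arrays within a group, where genotype and cell type are the same, is given as a description with no test. In the mutant mesangial group, array A was highest for 8 of the 8 members other than *Arntl* and *Npas2*, and also for 1 of these 2 activators, and array C was lowest for 7. Mutant endothelial array A was highest for 7 of these 8 and array B lowest for 7. Control mesangial array A was highest for 6 of 8 and lowest for both *Arntl* and *Npas2*. Mutant podocyte array C and wild type podocyte array A were each highest for 4 of 8 and lowest for both activators. Mutant mesangial array B was also lowest for both activators but highest for 0 of 8. Control mesangial B, mutant podocyte B and wild type endothelial A were highest for both activators and lowest for 4, 4 and 5 of 8. In some arrays the 8 members were divided. Mutant podocyte A was highest for 3 of 8 and lowest for 3, wild type endothelial B highest for 4 and lowest for 3, and wild type podocyte C highest for 3 and lowest for 2.

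Over all 18 arrays, after subtraction of the mean of each cell type, Pearson's r was 0.385 to 0.911 among the 28 pairs of the 8 members. It was -0.834 to -0.530 for the 16 pairs of one of them with *Arntl* or *Npas2*, and 0.805 between *Arntl* and *Npas2*. These values describe the arrays, include the difference between genotypes, and rest on points that share arrays and cell sorts. In a wild type clock, the activators and the genes of the negative limb run in antiphase through the day.

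**Figure D3:**
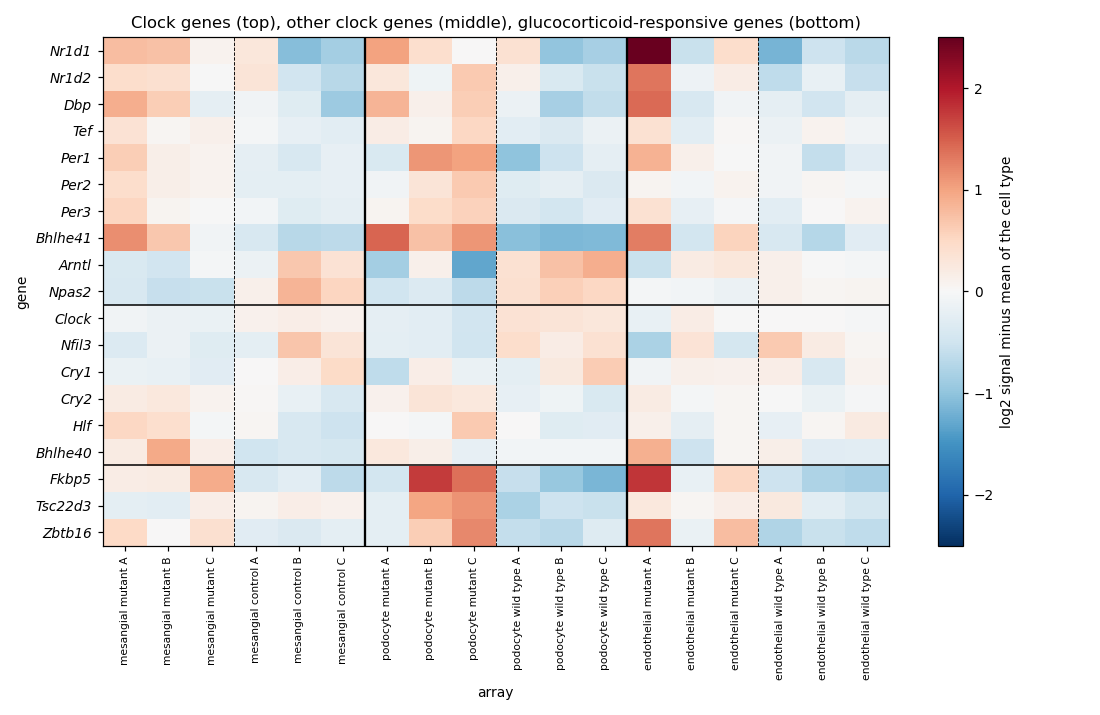
Log2 signal minus the mean of the 6 arrays of the cell type (colour, red above and blue below), for the 10 clock genes, 6 other clock genes and 3 glucocorticoid-responsive genes (rows) in the 18 arrays (columns). In control mesangial array B the 8 genes at the top are blue with *Arntl* and *Npas2* red, and in mutant endothelial array A the 8 genes are red.

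Genes with the pattern most like that of 2 members over the 18 arrays were found by Pearson's r of these centred log2 signals among 11125 transcript clusters with 1 symbol. For *Dbp* they were *Rpl21* on 2 clusters (r = 0.898 and 0.861), *Nfkbiz* (0.840), *Mthfd1l* (0.826) and *Rpl21-ps10* (0.805). For *Arntl* they were *Rpe* (0.957), *Eif1b* (0.919), *Vps26b* (0.913), *Leo1* (0.912) and *Rcor1* (0.903). The *Rpl21* clusters changed little, by 0.04 to 0.16 between genotypes on the log2 scale, so the likeness is one of shape and not of size.

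Of 18 other clock genes, 11 were tested in mesangial cells, 10 in podocytes and 10 in endothelium. *Clock*, the usual partner of ARNTL, had mesangial signals of 605, 577 and 569 in mutant and 694, 715 and 693 in control arrays and podocyte signals of 478, 461 and 401 and 716, 690.5 and 676. No array of either genotype overlapped the other in these cell types, whereas endothelial signals of 616, 791 and 699.7 in mutants spanned the 709, 709.8 and 687 of wild type. Its log2 difference of -0.64 (SE 0.12, adjusted p = 0.143) passed the screen in podocytes and was -0.26 (SE 0.07, adjusted p = 0.117) in mesangial cells (limma). *Hlf*, a PAR bZIP relative of *Dbp*, at 0.59 (SE 0.20, adjusted p = 0.163), and *Bhlhe40*, the DEC1 relative of *Bhlhe41*, at 0.88 (SE 0.21, adjusted p = 0.0781), passed the screen as higher in mutant mesangial cells. *Bhlhe40* reached 100 there only in mutant array B (124.7), with controls at 45.7 to 49.2, so its direction was fixed by the signal minimum. No member of this list passed the adjusted test within a cell type, where 4 of 11, 2 of 10 and 0 of 10 had an unadjusted p under 0.05 in mesangial cells, podocytes and endothelium, beside 21.7%, 14.3% and 18.5% of all transcript clusters. In the average over cell types 12 were tested. *Clock* fell, at -0.30 (SE 0.05, adjusted p = 0.00458), as did *Nfil3*, a D-box repressor that opposes the PAR bZIP factors, at -0.59 (SE 0.15, adjusted p = 0.0269), 2 of 12 beside 3.6%, and 0 rose. The median of the 12 was -0.01 on the log2 scale, beside 0.00 for all transcript clusters. The fall of *Clock* was not alike in the cell types, and its mean log2 signal in endothelium was 9.449 in mutants and 9.455 in wild type. Its endothelial effect minus the podocyte one, 0.63, was the 1 of 12 past the adjusted test there, beside 2.11% of transcript clusters. Of the other interactions of this list 0 passed.

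A further 9 genes that cycle in many mouse organs were also listed, and 6, 7 and 6 were tested in the 3 cell types. *Tspan4*, a tetraspanin, at 0.62 (SE 0.14, adjusted p = 0.0728), and *Fkbp5* passed the screen in mesangial cells, *Usp2*, a ubiquitin protease, at 0.79 (SE 0.19, adjusted p = 0.174), *Tsc22d3* and *Fkbp5* in podocytes, and *Fkbp5* in endothelium. These were 2 of 6, 3 of 7 and 1 of 6, all as higher in mutants, beside 2.08%, 1.26% and 2.96% of transcript clusters. *Usp2* in podocytes and *Fkbp5* in podocytes and endothelium reached 100 only in mutant arrays, which fixed their direction in these counts. Averaged over cell types *Tspan4* rose by 0.43 (SE 0.08, adjusted p = 0.00471) and *Fkbp5* by 1.36 (SE 0.28, adjusted p = 0.0102) on the log2 scale (limma), 2 of 8 beside 2.26%, and 0 fell. The median of the list was -0.02, 0.59 and 0.40 in mesangial cells, podocytes and endothelium. In the interactions 1 of 8 passed the adjusted test for endothelium against podocytes, beside 2.11% of transcript clusters. This was *Usp2*, with an endothelial effect minus the podocyte one of -1.05. Its endothelial signals, 63.6 to 89.5, stayed below 100.

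*Fkbp5*, a chaperone of the glucocorticoid receptor that the hormone induces, was read beside *Per1* because both respond to glucocorticoids. It had 179, 182 and 300.3 in mutant and 119.9, 131 and 101 in control mesangial arrays. Podocytes gave 104, 483 and 373 in mutants and 95.2, 73.7 and 64.5 in wild type, and endothelium 395, 99.4 and 162 and 79.3, 66.9 and 63.7. All mutant arrays were above all control arrays of their cell type. Mutant podocyte B and C were the highest podocyte arrays for both genes, while in mutant mesangial cells *Fkbp5* was highest in C, where *Per1* was lowest, and lowest in A, where *Per1* was highest. The log2 differences were 0.88 (SE 0.22, adjusted p = 0.0869) in mesangial cells, 1.79 (SE 0.52, adjusted p = 0.213) in podocytes and 1.41 (SE 0.43, adjusted p = 0.163) in endothelium. Of 9 glucocorticoid-responsive genes including *Per1*, all tested in each cell type, 3 passed the screen as higher in mutant mesangial cells, 4 in podocytes and 4 in endothelium, beside 2.08%, 1.26% and 2.96% of transcript clusters, and 0 as lower. The median log2 difference of the list was 0.13, 0.36 and 0.52 in the same order, beside -0.03, -0.04 and 0.07 for all tested. Besides *Per1* and *Fkbp5* these were *Zbtb16* in all 3 (log2 0.60, 1.05 and 1.29), *Errfi1* in mesangial cells, *Tsc22d3* in podocytes, at 1.25 (adjusted p = 0.205), and *Cdkn1a* in endothelium. *Zbtb16* stayed at 63.8 to 83.0 in all control arrays and was tested in every cell type, and in the average below, only through mutant arrays, as was *Fkbp5* in podocytes and endothelium, so these counts were partly fixed by the signal minimum. *Errfi1*, a feedback inhibitor of the EGF receptor, rose in mesangial cells, at 2.32 (SE 0.16, adjusted p = 0.00299), and *Cdkn1a*, the cell cycle inhibitor p21, rose in endothelium, at 1.06 (SE 0.13, adjusted p = 0.0105) (limma). Others did not pass and lay on the other side of 0. *Sgk1* was at -0.26 in mesangial cells and -0.71 in podocytes. *Tsc22d3* was at -0.23 and *Klf9* at -0.105 in mesangial cells, and *Dusp1* at -0.05 and -0.03 in mesangial cells and podocytes. Averaged over cell types, *Per1*, *Fkbp5*, *Zbtb16* at 0.98 (adjusted p = 0.00698) and *Errfi1* at 1.05 (adjusted p = 0.00014) rose, 4 of 9, beside 2.26%. The *Errfi1* average was uneven. Its mean signals in mutants and controls were 1043 and 209 in mesangial cells, 227 and 176 in podocytes, and 155 and 110 in endothelium. Its effect was lower than the mesangial one by adjusted p, at -1.97 in podocytes and -1.84 in endothelium. It was the 1 of 9 to pass in each, beside 0.717% and 1.07% of transcript clusters. Whether glucocorticoid levels differed between the mice was not tested.

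**Figure D4:**
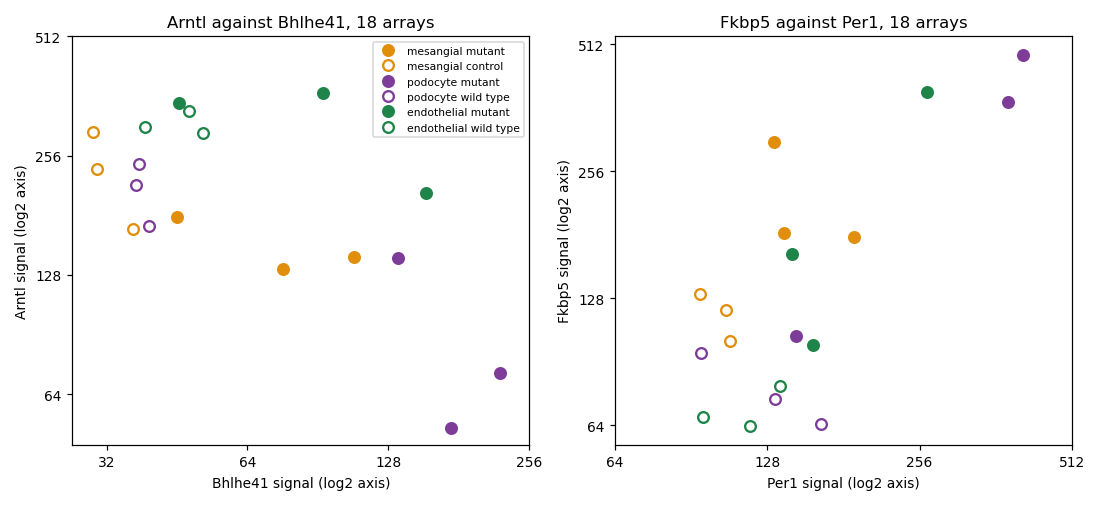
Signals of the 18 arrays on log2 axes, *Arntl* against *Bhlhe41* (left) and *Fkbp5* against *Per1* (right), coloured by cell type with filled symbols for mutants and open ones for controls. Mutant podocytes hold high *Bhlhe41* with low *Arntl*, and the arrays with *Per1* at 265 to 409.7 are also those with *Fkbp5* at 373 to 483.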

How the data were processed

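RNA of the sorted cells went through 1 round of Ribo-SPIA amplification before hybridization to Mouse Gene 1.0 ST arrays (Affymetrix). The authors deposited linear intensity values per transcript cluster that the sample records ascribe to RMA in Expression Console, with annotation on mm9, while the methods name GeneSpring and the series record Exon arrays with GeneBASE. A further 18 columns of the table, headed as normalized, were not used. RMA gives the probes of all arrays one distribution, so a change of total RNA per cell is not seen, while the summarized values of the clusters still differ in distribution between arrays. Background compresses low signals.

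Log2 intensity was fitted with lmFit and eBayes (limma 3.58.1, R 4.3.3), mutant minus control within each cell type, over the transcript clusters that reached a signal of 100 on any of the 6 arrays. A fit of all 18 arrays gave the average effect, the interactions and the levels. Benjamini-Hochberg adjustment ran over all clusters tested, and "rose" and "fell" mean an adjusted p under 0.05. The screen of the methods (p under 0.05, over 1.5-fold), with its p taken here as unadjusted, is given beside it. The p-values measure the spread between arrays. The 3 arrays per group limit the precision. The procedure was tested on simulated data. All 10 members are described in every comparison. Genes of the other lists are named when past the screen or the adjusted test within a cell type or in the average. In the interactions they are named when past the adjusted test only. Their levels between control groups were fitted too, and those that passed the adjusted test there are not named. Members and lists were chosen with earlier results of these data known. Promoter sequences are from RefSeq (GRCm38.p6). Alternatives were other signal minimums, 1 fit of 18 arrays, an intensity trend with robust estimation, subtraction of array medians, omission of each array, the other *Nr1d1* cluster and, chosen after seeing the data, a term for sex-linked expression. RNA-seq data were not used here.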

Additional observations from a re-analysis of the deposited data

Results flagged for a closer look

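The genotype effect on the *Npas2* signal passed the adjusted test of a difference between endothelium and each other cell type. Endothelial signals were near the floor in both genotypes, so that test cannot show that genotype acts differently there. The effect was higher by 0.85 on the log2 scale in endothelium than in mesangial cells (limma, adjusted p = 0.0497). It was higher by 0.83 in endothelium than in podocytes (adjusted p = 0.0412). The endothelial signals of *Npas2* were 41.9, 41.4 and 39.0 in mutant and 47.3, 44.6 and 45.5 in wild type arrays, below the median of any array. The gene entered these fits only through mesangial and podocyte controls. A fall from signals this low may be compressed by background. Neither this nor whether the gene is expressed in endothelium was tested. With 1 array left out, the first difference kept an adjusted p under 0.05 in 4 of 18 fits, with values of 0.68 to 1.04, and the second in 6 of 18, with values of 0.75 to 0.91. Neither call held with an intensity trend (limma, adjusted p = 0.0729 and 0.0582) or with the sex-linked term (0.368 and 0.0834), and with no signal minimum the first was lost (0.0655).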

How the results depend on the processing

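The directions of the single genes held under the alternatives apart from 6 values. The other *Nr1d1* transcript cluster gave -0.19 in mesangial cells, -0.22 in podocytes and -0.071 in the average, and endothelial *Arntl* became 0.025 after subtraction of array medians, 0.22 without mutant array A and 0.006 without wild type array A, and was -0.2 without mutant array C. Of the other single values, 546 kept their direction and side of the threshold, 133 lost it and 14 passed it. With no signal minimum, and so more clusters tested, the members past the adjusted threshold were 0 in mesangial cells, 0 in podocytes, 4 in the average and 0 for endothelium against mesangial cells, and 2 passed the endothelial screen. With 1 fit of 18 arrays 3 passed the mesangial screen and 5 podocyte members the adjusted threshold, and with the sex-linked term added 2 and 5 did. An intensity trend left 2 in the endothelial screen, and both it and the sex-linked term left 0 members in either endothelial interaction. The causes were not tested. Leaving out 1 array gave 0 to 1 members past the adjusted threshold in mesangial cells, 0 to 5 in podocytes, 0 to 1 in endothelium and 4 to 10 in the average. The screens gave 1 to 6, 6 to 8 and 0 to 5. The interactions gave 0 to 1 for endothelium against mesangial cells, 0 to 3 against podocytes and 0 for podocytes against mesangial cells. Levels between controls gave 0 to 2 for podocytes against mesangial cells, 1 to 3 for endothelium against mesangial cells and 1 to 3 against podocytes. No paired analysis was possible because the labels number the samples 1 to 18 without sharing a number between groups. Signals near background limit *Per2*, *Per3*, *Tef*, *Bhlhe41* and *Npas2*.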

Other observations

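Immediate early genes, which cells induce within minutes of a stimulus such as dissociation, were read in the same arrays. Of 13 listed, 10, 12 and 12 were tested in mesangial cells, podocytes and endothelium. *Egr1*, a zinc finger factor, rose in mutant mesangial cells, at 0.80 (SE 0.14, adjusted p = 0.0396) on the log2 scale, and passed the screen in podocytes, at 0.95 (adjusted p = 0.143), and endothelium, at 0.69 (adjusted p = 0.2) (limma). *Ier3* passed the screen in mesangial cells, at 0.85 (adjusted p = 0.098), and endothelium, at 0.77 (adjusted p = 0.172), and *Egr2* in mesangial cells, at 0.65 (adjusted p = 0.0636). *Egr2* in mesangial cells and *Egr1* in podocytes reached 100 only in mutant arrays, so their direction there was fixed by the signal minimum. In the average over cell types *Egr1*, at 0.81 (adjusted p = 0.00223), and *Ier3*, at 0.64 (adjusted p = 0.0163), rose, 2 of 13 beside 2.26%, 0 fell, and the median of the list was 0.21 beside 0.00 for all transcript clusters. Its part in the clock gene differences was not tested.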
